A study of Mus musculus with 40 samples.

Results

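The regions described here were the binding sites of 3 corepressors in mouse liver for which the closest protein-coding transcription start site (TSS) was that of Myc or Zmiz1, at whatever distance. SMRT, NCoR and HDAC3 had been mapped by chromatin immunoprecipitation and sequencing (ChIP-seq), and the deposited lists held 10654, 35138 and 14462 peaks. Of these 60254 peaks, 147 met the rule, 79 of them at Myc (15 SMRT, 44 NCoR and 20 HDAC3 peaks) and 68 at Zmiz1 (16 SMRT, 33 NCoR and 19 HDAC3 peaks). Both genes had been picked because many NCoR peaks in their surroundings also carried SMRT and HDAC3, so the counts of such sites are given as a description and were not tested.

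All libraries behind the 3 lists came from whole liver of ad libitum fed C57BL/6 mice of genotype Bcl6 fl/fl, in which the Bcl6 gene is flanked by loxP sites but intact for want of Cre recombinase. These mice were the controls of a study that asked where the repressor BCL6 and its corepressors bind in liver. Each list merged 3 libraries, labelled as separate replicates, into 1 set of positions without a height, score or p-value, so depth, strength of binding and spread between animals could not be given. The series had 40 samples in 18 groups, and the 31 samples outside these 3 groups, among them all livers lacking Bcl6, were not analysed here.

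NCoR and SMRT are related scaffold proteins without DNA-binding domains of their own, brought to chromatin by nuclear receptors and by repressors such as BCL6, and HDAC3 is the histone deacetylase that works within their complexes. MYC is a basic helix-loop-helix transcription factor that drives growth and proliferation, and its short gene is followed in the genome by the long noncoding gene Pvt1 and by a wide stretch without protein-coding genes. ZMIZ1 is a transcriptional coactivator related to the PIAS SUMO ligases that works with NOTCH1, p53 and SMAD proteins. Whole liver is mostly hepatocytes but contains endothelial, Kupffer, stellate and biliary cells, and the lists do not tell in which of these a site was occupied.

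An NCoR peak was called shared when the centres of a SMRT peak and of an HDAC3 peak lay within 200 bp of its own. For each gene the shared sites closest to and farthest from the TSS are printed, along with every shared site that contained a BCL6/STAT element, since BCL6 is the factor under study. The positions are those of the NCoR peaks on mm10, the bases are from the plus strand of the GRCm38.p6 reference, and capitals mark matches to any of the 12 motifs described further on.
Myc chr15:62063397-62063625: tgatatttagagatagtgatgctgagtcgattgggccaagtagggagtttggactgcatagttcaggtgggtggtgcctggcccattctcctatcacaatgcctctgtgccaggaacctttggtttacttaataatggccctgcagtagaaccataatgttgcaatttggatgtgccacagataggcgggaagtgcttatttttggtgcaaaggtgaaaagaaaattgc
Myc chr15:62164083-62164311: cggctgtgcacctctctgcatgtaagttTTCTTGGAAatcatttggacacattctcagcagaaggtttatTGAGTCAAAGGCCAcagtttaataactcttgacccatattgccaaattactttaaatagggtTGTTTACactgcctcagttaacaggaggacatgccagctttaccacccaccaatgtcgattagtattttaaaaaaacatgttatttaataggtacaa
Myc chr15:62216990-62217218: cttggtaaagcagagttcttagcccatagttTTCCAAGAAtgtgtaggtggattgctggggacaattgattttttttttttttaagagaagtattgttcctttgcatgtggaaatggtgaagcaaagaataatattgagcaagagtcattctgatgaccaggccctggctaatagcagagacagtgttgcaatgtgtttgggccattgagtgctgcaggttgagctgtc
Myc chr15:62345989-62346217: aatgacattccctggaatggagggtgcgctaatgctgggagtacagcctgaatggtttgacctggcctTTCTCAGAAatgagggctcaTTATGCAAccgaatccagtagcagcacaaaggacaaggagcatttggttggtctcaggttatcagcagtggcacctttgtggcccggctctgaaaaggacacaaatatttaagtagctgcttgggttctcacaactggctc
Myc chr15:62743998-62744226: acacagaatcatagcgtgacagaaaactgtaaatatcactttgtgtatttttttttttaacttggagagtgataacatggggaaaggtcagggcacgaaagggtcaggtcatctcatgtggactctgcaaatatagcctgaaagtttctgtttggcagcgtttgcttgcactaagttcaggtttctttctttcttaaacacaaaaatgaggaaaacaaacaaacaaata
Zmiz1 chr14:25451764-25451992: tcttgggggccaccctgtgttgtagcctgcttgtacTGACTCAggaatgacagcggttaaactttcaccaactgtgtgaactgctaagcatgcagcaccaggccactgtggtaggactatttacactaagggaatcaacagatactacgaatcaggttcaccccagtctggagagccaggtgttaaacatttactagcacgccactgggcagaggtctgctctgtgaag
Zmiz1 chr14:25181558-25181786: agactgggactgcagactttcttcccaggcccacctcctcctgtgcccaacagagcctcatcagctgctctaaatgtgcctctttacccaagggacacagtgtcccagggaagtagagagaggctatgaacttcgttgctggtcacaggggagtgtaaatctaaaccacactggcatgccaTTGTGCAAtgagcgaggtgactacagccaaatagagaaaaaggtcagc

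The first of these sequences was the shared site closest to Myc, 76.1 kb downstream of its TSS in intron 1 of Pvt1, and the fifth was the one farthest away, 757 kb downstream in an intron of the long noncoding gene Gm41333. Neither contained any of the motifs. The 3 printed between them lay in Pvt1 at 177, 230 and 359 kb and contained the BCL6/STAT elements TTCTTGGAA, TTCCAAGAA and TTCTCAGAA, in that order. In the site at 177 kb, an AP-1 element and an HNF4-type element overlapped by a few bases in the run TGAGTCAAAGGCCA, and a forkhead element followed. The shared site closest to Zmiz1 lay 7.35 kb upstream of its TSS and had an AP-1 element, and the farthest lay 278 kb upstream and had a C/EBP element.

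The Myc gene (chromosome 15, 61985391 to 61990374, plus strand) is 4.98 kb long and has 5 annotated TSSs. Its neighbours with protein-coding starts, A1bg on the left and Gsdmc on the right, were 1064 and 1823 kb away, so that the Myc TSS was the closest one over 1445 kb (61453329 to 62898090). The lists placed no peak within the Myc gene body and none at its promoter, defined as 1000 bp upstream to 100 bp downstream of a TSS. Of all NCoR peaks, 10.4% were at a protein-coding promoter. The NCoR peak closest to Myc was at 1.90 kb upstream, had neither partner, and contained a CTCF element.

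NCoR peaks of Myc were spread over a wide range of distances and lay almost entirely on one side. Their median distance from the TSS was 252 kb, with quartiles of 88.3 and 352 kb and a maximum of 815 kb, where all NCoR peaks had a median of 18.2 kb and quartiles of 4.57 and 54.4 kb. Downstream of the gene were 40 of the 44 peaks (90.9%), compared with 56.8% of all NCoR peaks. More than 100 kb away were 32 of 44 (72.7%), against 14.1% of all NCoR peaks, and more than 500 kb away were 9 of 44 (20.5%), against 1.20%. The length of the stretch without other protein-coding starts bounds such distances from above, and only genes with similarly isolated starts could reach them.

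**Figure D1:**
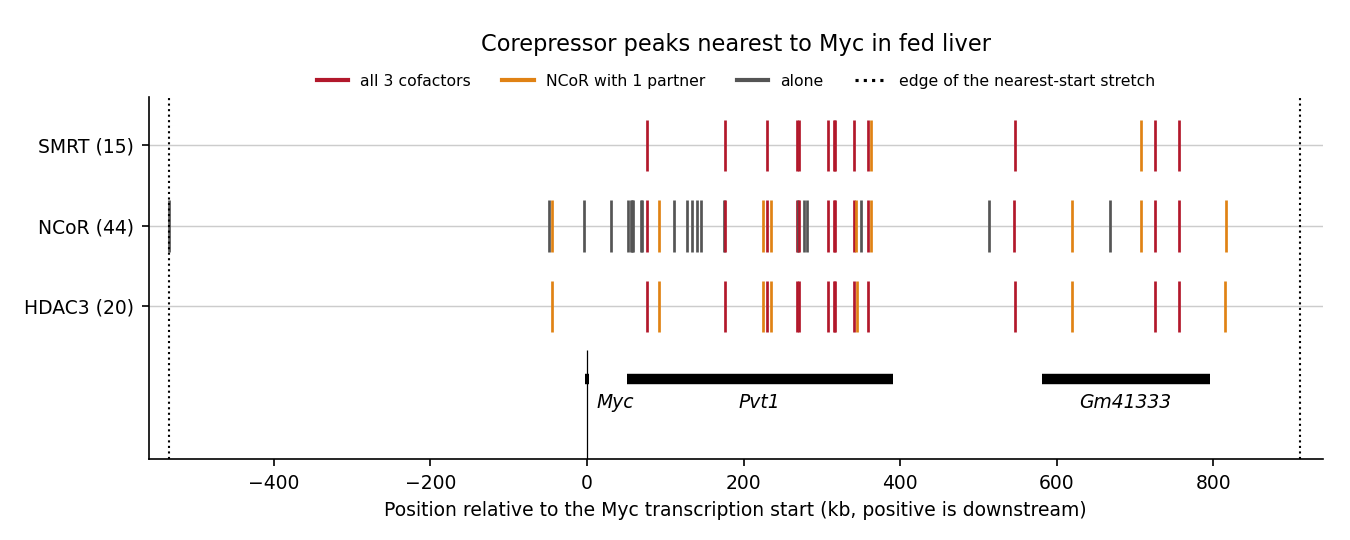
Positions of SMRT, NCoR and HDAC3 peaks closest to Myc, as kb from the most downstream Myc TSS on the horizontal axis. Each vertical tick is 1 peak, coloured by the partners within 200 bp, with the number of peaks beside each list, gene bodies as black bars and dotted lines at the edges of the stretch in which the Myc TSS is the closest. Shared sites (red) begin at 76.1 kb and gather between 268 and 359 kb in Pvt1, while ticks without a partner (grey) fill the stretch between Myc and 150 kb.

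The 13 shared sites were all downstream, with a median distance of 315 kb and a range of 76.1 to 757 kb. They stood at 76.1, 177, 230, 268, 271, 308, 315, 317, 341, 359, 546, 725 and 757 kb from the TSS. Thus 9 of the 13 fell between 177 and 359 kb, with close pairs at 268 and 271 kb and at 315 and 317 kb, and the last 3 stood alone. Across the genome, 579 shared sites were more than 200 kb from a protein-coding TSS, and 11 of them belonged to Myc. Foxo1 came next with 10, and no other gene had as many as Myc. Since Myc was picked for its number of shared sites and its long stretch allows such distances, this rank is a description only. Of the 423 NCoR peaks more than 500 kb from a TSS, which were divided among 189 genes, 4 genes including Myc had 9 or more.

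The Pvt1 gene (62037986 to 62378096, plus strand, 340 kb) made up 23.5% of the stretch assigned to Myc but held 31 of its 44 NCoR peaks (70.5%), among them 10 of the 13 shared sites and 16 of the 22 peaks without a partner. All were in introns of Pvt1. Introns 1 and 2 had 9 and 4 NCoR peaks, of which 7 and 4 had no partner and only 1, in intron 1, was shared. Intron 5 had 8 peaks, 5 of them shared, and introns 3 and 6 had 5 peaks each with 2 shared sites apiece. Gm41333 (62567975 to 62782787, 215 kb), a long noncoding gene of which no function is given in the annotation, held 5 NCoR peaks with 2 shared sites. The remaining shared site, at chr15:62533303-62533531 and 546 kb downstream, was in no annotated gene. These are the genes in whose bodies the peaks lay, and no measurement tied a peak to the transcription of Myc or of Pvt1.

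The classes of peaks changed along the locus. Within 150 kb downstream of the Myc TSS, 12 of 14 NCoR peaks (85.7%) had no partner and 1 was shared. Between 150 and 400 kb, 9 of 18 were shared and 5 (27.8%) had no partner, and beyond 400 kb, 3 of 8 were shared and 2 had no partner. Upstream, the 532 kb between the left edge and the gene made up 36.8% of the stretch and had 4 NCoR peaks, none of them shared and 1 with HDAC3 (43.2 kb upstream). Density was 9.33 NCoR peaks per 100 kb in the first 150 kb, 7.20 between 150 and 400 kb and 1.57 beyond, while that of shared sites was 0.667, 3.6 and 0.587 per 100 kb. The limits of 150 and 400 kb were set after the positions had been seen, and so no test was made of the contrast. The longest gaps without an NCoR peak were 486 kb upstream and 151 kb downstream, the latter starting within Pvt1 just after the peak at 363 kb.

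The Zmiz1 gene (chromosome 14, 25459185 to 25666743, plus strand) is 208 kb long and differed from Myc in that many of its sites were inside the gene. Rps24 on the left and Ppif on the right had the neighbouring TSSs, at 968 and 235 kb, and Zmiz1 held the closest TSS over 602 kb (24974996 to 25576718). The right edge of this stretch falls within Zmiz1 itself. A further 4 NCoR peaks in the distal part of the gene, 120 to 187 kb from its TSS, were therefore assigned to Ppif, the mitochondrial cyclophilin. None of the 4 had a partner, so the count of 14 shared sites would be unchanged with them and the count of NCoR peaks would be 37.

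Zmiz1 was long-range only in part. Its NCoR peaks had a median distance of 61.5 kb, with quartiles of 28.4 and 81.1 kb, so that 20 of 33 (60.6%) were more than 50 kb from the TSS where 26.8% of all NCoR peaks were. Beyond 100 kb, however, were 5 of 33 (15.2%), close to the 14.1% of all NCoR peaks, and the most distant was at 278 kb. The 14 shared sites had a median distance of 43.7 kb, against 22 kb for the 8739 shared sites of the genome. Those upstream were at 7.35, 250, 251 and 278 kb, and those downstream at 7.42, 22.2, 28.4, 30.3, 34.7, 37.0, 50.4, 61.5, 64.2 and 78.3 kb. The shared sites thus formed a nearly continuous series around and after the TSS and a distant set of 3 upstream. In the plot of cumulative distances the curve of Zmiz1 comes close to that of all peaks near 100 kb and passes it only at its farthest peaks, whereas the curve of Myc stays below it up to its last peak at 815 kb.

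**Figure D2:**
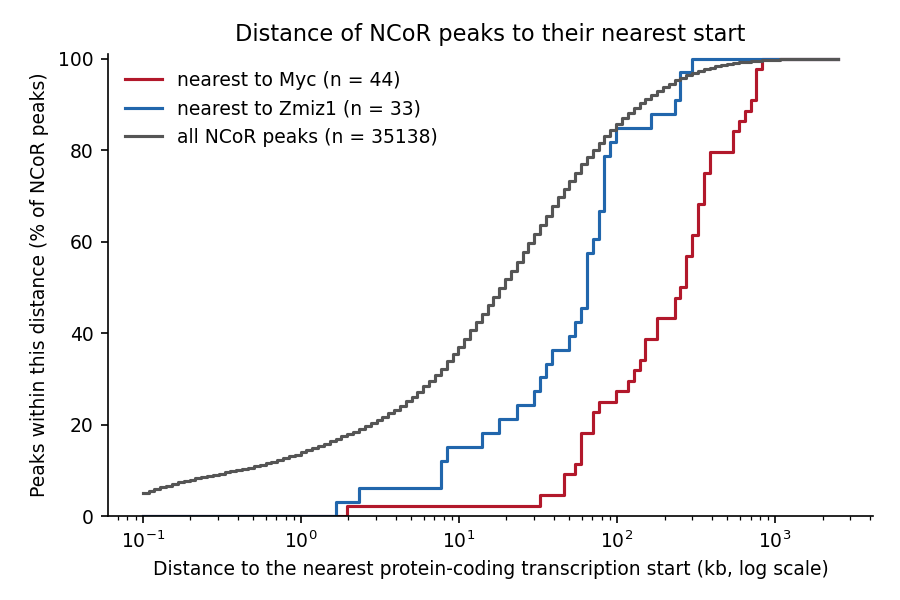
Cumulative share of NCoR peaks (vertical axis, percent) within a given distance of the closest protein-coding TSS (horizontal axis, kb, log scale), for the 44 peaks of Myc, the 33 of Zmiz1 and all 35138. Median distances are 252, 61.5 and 18.2 kb.

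The body of Zmiz1 up to the right edge (118 kb) made up 19.5% of the stretch and held 21 of the 33 NCoR peaks (63.6%) and 10 of the 14 shared sites, at densities of 17.9 and 8.51 per 100 kb. All 21 were in the introns, 9 in intron 1 (6 shared), 7 in intron 2 (3 shared) and 5 in intron 3 (1 shared). In the first 50 kb downstream of the TSS, 6 of 10 NCoR peaks were shared and 2 had no partner. In the next 50 kb, 4 of 11 were shared, 3 had HDAC3 and 4 had no partner. Upstream within 100 kb, 6 of 7 peaks (85.7%) lacked a partner and 1 was shared, where 56.1% of all NCoR peaks lacked a partner. The limits of these stretches, 50 and 100 kb, were set after the positions had been seen, so the classes were not tested. The antisense gene Zmiz1os1 (25257523 to 25461128, minus strand), which starts near the Zmiz1 TSS and runs the other way, held 8 NCoR peaks, 6 of them without a partner and 1 shared. The 3 farthest shared sites, between 250 and 278 kb upstream, were in no annotated gene.

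**Figure D3:**
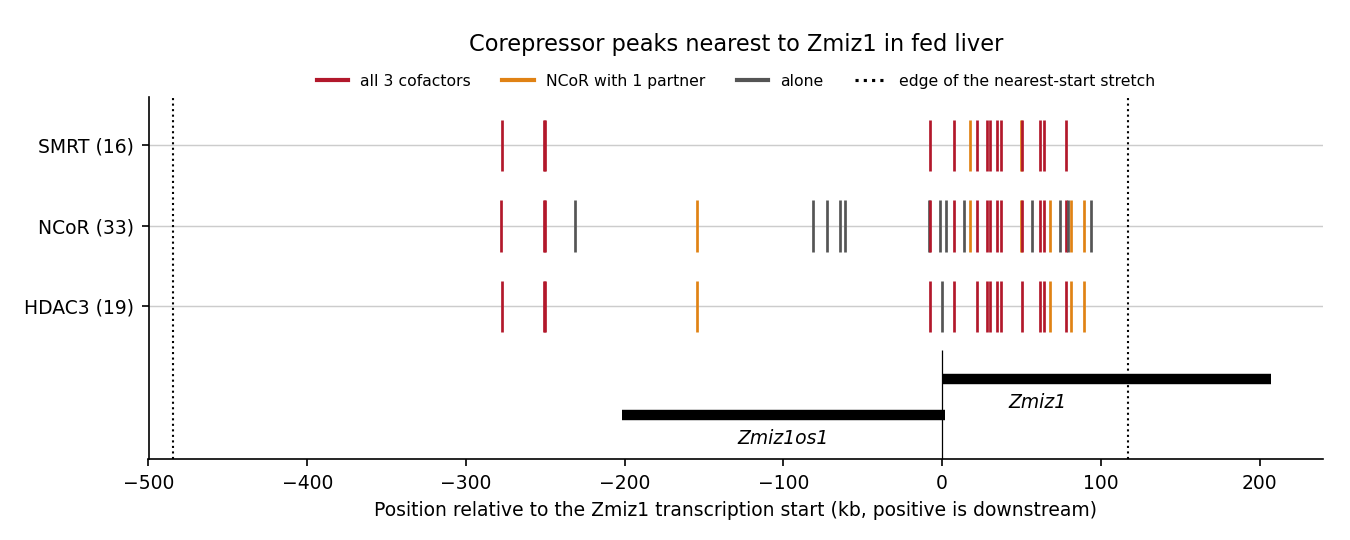
Positions of SMRT, NCoR and HDAC3 peaks closest to Zmiz1, as kb from the most downstream Zmiz1 TSS on the horizontal axis. Ticks, colours, gene bars and dotted edges are as in the plot for Myc. Shared sites (red) run from 7.35 kb upstream to 78.3 kb downstream with 3 more between 250 and 278 kb upstream, and the single grey tick in the HDAC3 row is the peak at the TSS.

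The promoter of Zmiz1 had an HDAC3 peak and no NCoR or SMRT peak. This peak, at chr14:25459161-25459373, was centred exactly on the more downstream of the 2 annotated Zmiz1 TSSs (0 bp). It overlapped the untranslated start of the Zmiz1 transcript and an exon of Zmiz1os1. It was the only one of the 39 HDAC3 peaks of both genes that lacked both partners, a class that made up 2.95% of all HDAC3 peaks, and 8.00% of all HDAC3 peaks were at a promoter. Its GC content was 62.4%, with 23 CpG dinucleotides and an AP-1 element in 213 bases. The closest NCoR peaks, at 1.54 kb upstream and 2.30 kb downstream, had no partner either. At the Myc promoter there was no peak of any of the 3 proteins, which without a depth does not show that none of them was bound there. In the same way, the missing NCoR and SMRT peaks do not show that HDAC3 was bound at the Zmiz1 promoter without them.

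SMRT and HDAC3 peaks at both genes nearly always lay on an NCoR peak, as they did in the genome. All 31 SMRT peaks had NCoR within 200 bp, compared with 95.7% of all SMRT peaks, and 27 (87.1%) also had HDAC3, compared with 81.9%. Of the 39 HDAC3 peaks, 38 (97.4%) had NCoR, compared with 96.5% of all HDAC3 peaks, and 27 (69.2%) had both partners, compared with 60.4%. The partners were closely centred. At Myc, the median offset from the NCoR centre was 25 bp for SMRT and 13 bp for HDAC3, and at Zmiz1 it was 31 and 22.5 bp, where all shared sites had 23 and 21 bp. The largest offset was 107 bp, for SMRT at the site 251 kb upstream of Zmiz1.

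Seen from NCoR, 13 of 44 peaks at Myc were shared (29.5%, exact 95% binomial interval 16.8 to 45.2%), 7 had HDAC3 without SMRT (15.9%), 2 had SMRT without HDAC3 (4.55%) and 22 had neither (50%, 34.6 to 65.4%). At Zmiz1, 14 of 33 were shared (42.4%, 25.5 to 60.8%), 4 had HDAC3 only (12.1%), 2 had SMRT only (6.06%) and 13 had neither (39.4%, 22.9 to 57.9%). Among all NCoR peaks the same classes made up 24.9%, 14.8%, 4.16% and 56.1%. The shared class of Myc was thus near the share in the genome, and its high count went with its 44 NCoR peaks, a number exceeded by 1 gene alone (Pik3r1, 46). For Zmiz1 the share was the higher of the 2, but the gene was picked on this count and nothing is read from the difference. The intervals cover counting error only.

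**Figure D4:**
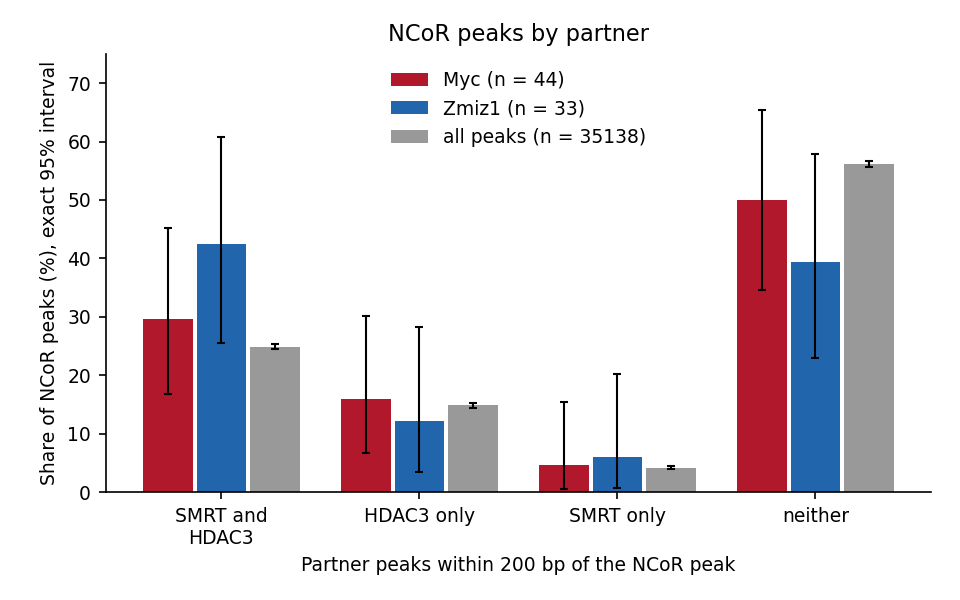
Share of NCoR peaks (vertical axis, percent) by the partners found within 200 bp, for Myc (44 peaks), Zmiz1 (33) and all 35138 peaks, with exact 95% binomial intervals. Shares with both partners are 29.5%, 42.4% and 24.9%.

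Pik3r1 (17), Tbl1xr1 (15), Zmiz1 (14), Irs2 (13) and Myc (13) had the most shared sites of the 21904 protein-coding genes, and Foxo1, Sik1, Sox9 and Zfp608 came just after them with 12 each. Pik3r1 encodes the regulatory subunit of PI3-kinase, Irs2 an insulin receptor substrate, and Tbl1xr1 a subunit of the NCoR and SMRT complexes themselves. Relative to the length over which each held the closest TSS, Myc and Zmiz1 stood apart from each other. Shared sites numbered 0.900 per 100 kb at Myc and 2.33 per 100 kb at Zmiz1, where the genome had 0.321, and the ratios to the genome were 2.81 and 7.26. Irs2 (2.50 per 100 kb), Pik3r1 (1.76) and Tbl1xr1 (0.674) covered a similar range. Of the genes with 12 shared sites, Sik1 was far denser (6.73), and Foxo1 had 2.63, Sox9 0.960 and Zfp608 0.946 per 100 kb. Myc and Zmiz1 were picked for their shared sites, so these densities are a description only. Among the 172 genes with a stretch at least as long as that of Myc, Myc included, 2 had 13 or more shared sites and the median was 0. Among the 860 with one at least as long as that of Zmiz1, Zmiz1 included, 3 had 14 or more and the median was 0. In total 4586 genes (20.9%) had a shared site, and the median stretch of a gene was 47.1 kb.

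**Figure D5:**
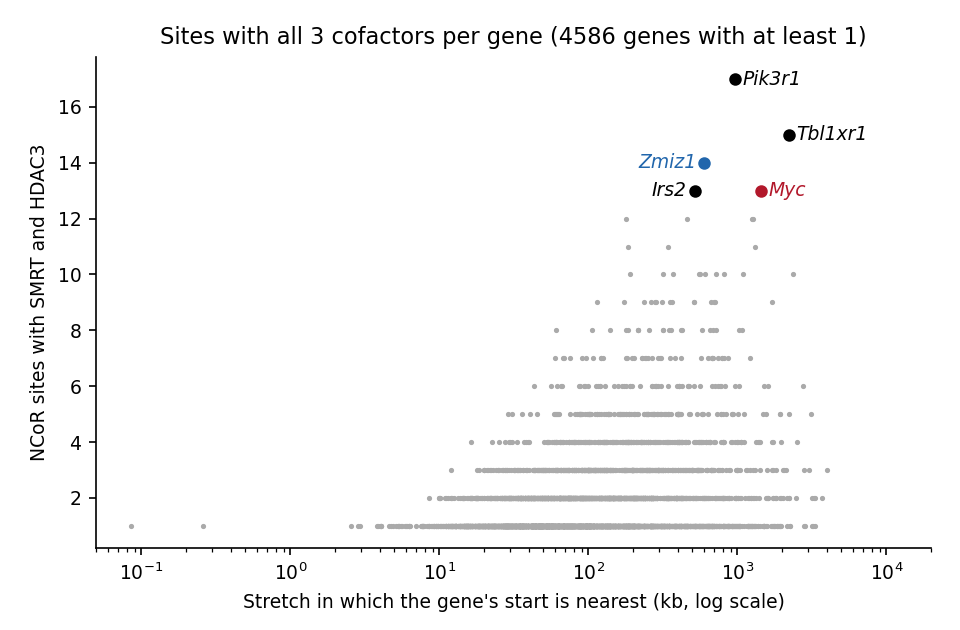
Number of shared sites per gene (vertical axis) against the length over which its TSS is the closest (horizontal axis, kb, log scale), for the 4586 genes with at least 1 shared site. Myc (13 sites over 1445 kb) and Zmiz1 (14 over 602 kb) are coloured, and the other labelled points are Pik3r1, Tbl1xr1 and Irs2.

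Sites of Zmiz1 were tightly grouped and those of Myc less so. Joining SMRT, NCoR and HDAC3 peaks with centres up to 200 bp apart gave 44 sites at Myc and 34 at Zmiz1. At Myc, another site was within 10 kb for 31 of 44 (70.5%, 54.8 to 83.2%). At Zmiz1 this held for 31 of 34 (91.2%, 76.3 to 98.1%), and in the genome for 63.0% of all 35999 sites. Having a neighbour is mutual and sites of the same locus are not independent. The intervals therefore do not test either share against the genome, and no excess is read from them. The median gap to the closest other site was 4.36 kb at Myc, 2.81 kb at Zmiz1 and 6.30 kb in the genome. Linking sites up to 10 kb apart gave 22 groups at Myc, of which 13 were single sites and the largest had 5, and 858 of the 21162 groups of the genome were as large or larger. At Zmiz1 it gave 7 groups, and 2 of them contained most of its sites. One ran for 45.3 kb across the TSS (25451158 to 25496441) with 13 sites, 7 of them bound by all 3 proteins, and the other ran for 44.7 kb (25508798 to 25553480) with 12 sites, 4 of them bound by all 3. Groups of 13 or more sites numbered 10 in the genome, and the largest had 16. The groups include the shared sites for which the genes were picked, so their rank is a description only.

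Shared sites alone showed the same contrast in density. The 100 kb starting at a shared site that held the most of them contained 7 at Myc, between 268 and 359 kb downstream of the TSS in introns 5 and 6 of Pvt1. Of 8739 such windows, 1 for each shared site, 149 (1.71%) contained 7 or more, and these were at 82 genes. At Zmiz1 the fullest window contained 11 of its 14 shared sites, from 7.35 kb upstream to 78.3 kb downstream of the TSS. Only 2 windows in the genome reached 11, the other one at Sik1, which encodes a salt-inducible kinase, and no window contained more. Both genes were picked for their number of shared sites, so a high rank of their windows follows in part from that choice and was not tested.

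Sequence was not used to choose the sites. The 200 bases around the centre of each NCoR peak were searched on both strands for 12 motifs of factors known in liver or named by the study. The BCL6/STAT element was TTCCNAGAA, TTCCNGGAA, TTCTNAGAA or TTCTNGGAA. The HNF4-type element was CAAAGGCCA, CAAAGGTCA, CAAAGTCCA or CAAAGTTCA, which is also contained in many forms of the longer DR1 element of nuclear receptors. The forkhead (FOX) element was TGTTTAC, the AP-1 element TGANTCA and the E-box CACGTG, and C/EBP was TTACGCAA, TTATGCAA, TTGCGCAA or TTGTGCAA. HNF6/CUX2 was TATCGATC, TATCGATT, TATTGATC or TATTGATT, ERR was TCAAGGTCA or TGAAGGTCA, ROR/REV-ERB was ANTAGGTCA and ETS/ELK was CCGGAAGT. DR1 and CTCF were searched as the longer elements of those names. A match is a run of letters and does not show that the factor was bound.

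The BCL6/STAT element occurred in 5 of the 77 windows (6.49%), against 3.85% of all NCoR windows, and in 1 of 77 when the window was narrowed to 100 bp. At Myc the 3 matches were in shared sites of Pvt1, those printed above. At Zmiz1 both were in NCoR peaks with HDAC3 but not SMRT, at 155 kb upstream in Zmiz1os1 and at 81.1 kb downstream in intron 3. None of the 35 NCoR peaks without a partner had one. The 5 matches were too few to compare the classes.

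AP-1 had 10 matches (13%, against 8.47% of all windows), 6 of them at Zmiz1, and the HNF4-type element had 9 (11.7%, against 7.85%), 5 at Myc and 4 at Zmiz1. The forkhead element had 8 (10.4%, against 7.74%), of which 6 were at Myc and 5 in shared sites of both genes. C/EBP was found in 5 windows (6.49%, against 5.52%). ERR, HNF6/CUX2 and the E-box, the last being the element bound by MYC itself, had 2 each (2.60%, against 2.18%, 5.67% and 4.16%). CTCF had 1 (1.3%, against 0.512%), in the peak closest to Myc. DR1, ROR/REV-ERB and ETS/ELK, found in 1.54%, 1.99% and 0.757% of all windows, had none in the 77, which allows a share of up to 4.68% by the exact interval. None of the 12 motifs was present in 42 of the 77 windows (54.5%), and in 59.5% of all NCoR windows. The exact 95% intervals of the 77 were wide, and for each of the 12 motifs the share of all NCoR windows was within them. Windows of 2 loci are not replicates, so this was no test and does not show that the motif content was alike.

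Other genes of the MYC network and of the ZMIZ1 family had fewer peaks. Myc and Zmiz1 were picked for high counts, so this contrast follows largely from that choice and was not tested. MAX is the obligate partner of MYC, the MXD proteins and MNT compete for MAX, and MLXIPL is the glucose-responsive factor ChREBP, which works with MLX. Of 13 other genes of the network, 11 had at least 1 NCoR peak and 7 a shared site, with a median of 2 NCoR peaks. Among all protein-coding genes, 49.1% had an NCoR peak and 20.9% a shared site. Mycn had 8 NCoR peaks (3 shared), Mnt 7 (2 shared), Max 6 (2 shared) and Mlxipl 6 (5 shared), and Mlx and Mxd3 had none. Among the 5 other PIAS-like genes, Pias1 had 5 NCoR peaks (2 shared), Zmiz2 had 2 and Pias3 had 1, none of them shared, while Pias2 and Pias4 had none. Of 7 genes for partners of ZMIZ1, 6 had at least 1 NCoR peak and 3 a shared site, with a median of 2 NCoR peaks. Among them, Smad3 had 9 NCoR peaks (1 shared) and Notch1 had 3 (1 shared). Stretches of these genes were mostly shorter, such as 35.7 kb for Mlxipl with its 5 shared sites. The counts therefore do not rank the genes by density.

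By counts of NCoR peaks in the 4 partner classes, on the scale of log2(count + 1), the genes most like Myc were Sox9, Adgrl2 and Lpp, with summed differences of 1.13, 1.24 and 1.48, among 275 genes with at least 5 shared sites. Those most like Zmiz1 were Zfp608, Irs2 and Nectin1, with summed differences of 1.07, 1.11 and 1.20. Sox9 had 36 NCoR peaks with 12 shared sites over 1250 kb, and Zfp608 had 33 with 12 over 1269 kb.

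As a check of the tissue, all 8 hepatocyte marker genes had NCoR peaks (median 7.5 per gene) and 6 had a shared site. Both endothelial markers also had NCoR peaks (median 6) and shared sites. NCoR peaks without a shared site were found at 1 of 3 lymphocyte markers, 1 of 2 stellate and 1 of 3 markers of other tissues, and at neither of the Kupffer cell markers was there a peak. Of 2 biliary markers, 1 had an NCoR peak and none a shared site. The marker lists are short, and their counts do not tell the cell types apart. Peaks near a marker are no measure of how much of that cell type a sample held, and the part of other cell types in the sites of Myc and Zmiz1 was not tested.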

How the data were processed

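The data were ChIP-seq peak positions for SMRT, NCoR and HDAC3 in fed Bcl6 fl/fl liver. Per the paper's methods, the authors aligned reads to mm10 with Bowtie, keeping unique mappers, and called peaks with HOMER on pooled replicates against input, retaining those that DESeq2, run on the separate libraries, found enriched over input. The deposited values are positions (chromosome, start and end) of fixed length, 212 (SMRT, HDAC3) or 228 (NCoR) from start to end. They hold no count, score or p-value, so depth is not known and no test was run. Nearest starts were taken over protein-coding transcripts of the GENCODE vM21 basic annotation, ties going by symbol. Peak pairs, groups, motifs and exact binomial intervals were computed in Python 3.11.15 with numpy 2.4.6, pandas 2.3.3 and scipy 1.17.1, and figures with matplotlib 3.10.9. Partner classes, nearest starts, the total length of stretches, merged sites, neighbours within 10 kb and motif matches were checked on simulated data, and the other steps were not. Genes named were the members, annotated genes holding or nearest to a member peak, bordering genes, the 5 genes with the most shared sites, the 3 most alike in class counts and members of the network, family and marker lists. Foxo1, Sik1, Sox9 and Zfp608 were also named as next in rank, after their values were seen. One listed gene is not reported here. Members and lists were chosen with earlier results of these data known. The Zmiz1 promoter sequence falls in a UTR and is not printed. Alternatives changed the overlap, the set of starts, the distance, the neighbour distance and the motif window.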

Additional observations from a re-analysis of the deposited data

How the results depend on the processing

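The assignment of sites to Myc and Zmiz1 rests on counting protein-coding starts alone. With TSSs of genes of every type, 0 NCoR peaks and 0 shared sites were closest to Myc and 0 and 0 to Zmiz1, and no share could be computed. With TSSs of protein-coding and long noncoding genes, an alternative added after seeing the data, Myc had 3 NCoR peaks and 0 shared sites (0%) and Zmiz1 had 0 and 0. Limited to 100 kb from the TSS, Myc had 12 NCoR peaks and 1 shared site (8.33%), and Zmiz1 had 28 and 11. The median distance at Myc was 315 kb over shared sites only, and 52.3% of its sites had a neighbour within 5 kb. With the 5' end of each gene as its only TSS, Myc had 43 NCoR peaks. Over these and the settings of overlap (100 or 400 bp), neighbour distance and NCoR peaks alone, 14 values moved and 25 counted as similar. Among the 25 was the median distance at Zmiz1, 61.5 kb over all its NCoR peaks and 43.7 kb over shared sites only. Of the 36 motif counts, 8 moved, all with the 100 bp window (BCL6/STAT from 5 to 1) except the E-box count over whole intervals (4). No paired analysis was possible because the lists pool their replicates and carry no value per library, and for the same reason no replicate could be left out. A stricter peak threshold was not run, as the lists carry no score.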

Other observations

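The member sites differed between the genes in base composition. The 200 bases around the NCoR centres had a median GC content of 46.3% at Myc (34.0 to 58.5%) and 56.0% at Zmiz1 (44.0 to 71.5%), where all NCoR peaks had 48.0%. At Zmiz1, 5 of 33 windows were above 60% GC, and at Myc none of 44 was, compared with 9.96% of all NCoR windows. Interspersed or simple repeats touched 50% of windows at Myc, 54.5% at Zmiz1 and 53.1% of all, and no member window was mostly repeat, compared with 3.79% of all.

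When long noncoding genes were admitted as nearest genes, the sites were taken up by few of them. Of the 44 NCoR peaks of Myc, 26 (7 shared) were closest to a start of Pvt1, 14 (6 shared) to Gm41333 and 3 stayed with Myc. Of the 33 of Zmiz1, 10 (6 shared) went to Gm47921 and 9 (3 shared) to Gm26772, both of which lie inside Zmiz1, and 5 (2 shared) to Zmiz1os1. One NCoR peak of Myc, at chr15:61453783-61454011 and 531 kb upstream, was 568 bp from the edge of the stretch in which the Myc TSS is the closest.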
